A study of Mus musculus with 6 samples.

Results

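Secreted Wnt antagonists are extracellular proteins that keep Wnt ligands from signaling. The 10 genes described here, *Dkk1*, *Dkk2*, *Dkk3*, *Sfrp1*, *Sfrp2*, *Sfrp4*, *Sfrp5*, *Wif1*, *Sostdc1* and *Notum*, were chosen by symbol, and each matched 1 of the 55487 genes in the deposited table. The RNA came from mandibular first molars at postnatal day 2.5, from which the dental epithelium was separated before sequencing. The control group was 3 libraries from Wnt10aflox/flox mice, which carry the floxed alleles without Cre, and the cKO group was 3 libraries from K14-Cre;Wnt10aflox/flox mice, whose Cre recombinase is driven by the keratin 14 promoter and so acts in epithelial cells. Each library was a pool of molars, 4 according to the design text and 5 according to the methods, and no group that carries Cre without the floxed alleles was analysed here. The animals were used regardless of sex, and the labels call the libraries biological replicates.

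As background, Wnt ligands bind Frizzled receptors together with the co-receptors Lrp5 and Lrp6 and so stabilize β-catenin. Antagonists act at different steps of this exchange. Wif1 and the secreted Frizzled-related proteins bind the ligand, Notum is an enzyme that removes the lipid a Wnt ligand needs, and Dkk1, Dkk2 and Sostdc1 bind the co-receptors. Several of them are themselves targets of β-catenin. In the developing tooth, Sostdc1 is known for limiting tooth number and shaping the cusps, and excess Dkk1 in the oral epithelium is known to arrest tooth formation. By GENCODE M21 positions on GRCm38, *Wif1* lies on chromosome 10 (121033960 to 121100650, plus strand) and *Notum* on chromosome 11 (120653788 to 120661175, minus strand). Of the Frizzled-related genes, *Sfrp1* lies on chromosome 8 (23411502 to 23449632, plus strand), *Sfrp2* on chromosome 3 (83766321 to 83774316, plus strand), *Sfrp4* on chromosome 13 (19623104 to 19632994, plus strand) and *Sfrp5* on chromosome 19 (42197971 to 42202252, minus strand). Of the others, *Sostdc1* lies on chromosome 12 (36314139 to 36318452, plus strand), *Dkk1* on chromosome 19 (30545863 to 30549665, minus strand), *Dkk2* on chromosome 3 (132085292 to 132180304, plus strand) and *Dkk3* on chromosome 7 (112116017 to 112159057, minus strand). The table holds 1 value per gene, so transcripts of a gene are not separated.

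RefSeq start sites on GRCm38.p6 were available here, by symbol, for 5 antagonists (*Dkk1*, *Dkk2*, *Sfrp2*, *Sfrp5* and *Wif1*). The set used did not include *Dkk3*, *Sfrp1*, *Sfrp4*, *Sostdc1* and *Notum*, which does not mean that RefSeq lacks them. Windows of 250 bases before to 50 after each start were searched on both strands for the core recognized by Tcf/Lef factors, the DNA-binding partners of β-catenin, spelled CTTTGAA or its variant CTTTGAT, as well as CTTTGTA with its variant CTTTGTT. Only the *Dkk1* window held it, and 16.9% of 27025 genes in the table had such a match. The *Dkk1* window held it at 2 places, 12 bases apart and both on the strand of the gene, and it is shown because no other of the 5 windows held the core. The stretch lies on chromosome 19, minus strand, at chr19:30549586-30549615, from 119 to 90 bases before the RefSeq start, inside the longer gene that GENCODE annotates up to 30549665. It reads 5′ to 3′, with the matches in capitals:
Dkk1: agCTTTGAAatcccatcccggCTTTGTTgt
A match of these letters does not show that a factor binds, and no binding data were analysed here.

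The expression level of the antagonists in *Wnt10a*-deleted epithelium was not distinguishable from that in control epithelium for any of the 10 genes. All 10 had a mean of at least 1 TPM (a share of the library's transcripts, scaled for transcript length) and were tested with limma after a log2(TPM + 1) transform, which makes changes of weakly expressed genes look smaller than they are. None had an adjusted p below 0.05 (0 of 10, against 0.0146% of all genes tested), and none had an unadjusted p below 0.05. The study's criteria of an unadjusted p below 0.05 and a difference above 20% were met by 0 of 10 antagonists, against 4.02% of all 13719 genes tested, of which 1.55% were higher and 2.47% lower in cKO. The p used for these criteria came from limma, so the genes called here are not the study's own list of differentially expressed genes. The groups overlapped for every antagonist, and 9.64% of all genes tested had no overlap. For a list of 10 genes, counts of 0 are near these shares, so they do not set the antagonists apart from other genes. The fitted log2 fold changes were positive for 6 antagonists and negative for 4, with a median of 0.05, beside a median of -0.07 over all genes tested. These counts do not show that the levels were equal, and the intervals given below set how large a difference could have been missed.

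The targeted gene was lower in every cKO library. With libraries given in the order of their replicate numbers, here and below, *Wnt10a* was 55.96, 51.20 and 57.86 TPM across the controls against 22.69, 21.79 and 32.22 TPM across cKO (log2 fold change -1.10, SE 0.19, unadjusted p of 0.000653 from limma, adjusted p 0.747). Each library summed to between 983952 and 993946 TPM, which fixes the unit but not the sequencing depth, so no counting error can be given. Across all genes, 213 met the study's criteria with a higher and 339 with a lower level in cKO, a split that became 324 and 325 with quantile normalization, 316 and 333 with median-ratio scaling, and 104 and 651 with values rescaled to the protein-coding genes, *Amelx* and *Ambn* left out. *Krt5*, a basal keratin of epithelia, was between 1945.39 and 3712.59 TPM in all 6 libraries. The libraries also held mesenchymal transcripts, with *Col1a1* between 1794.68 and 3126.60 TPM and the odontoblast gene *Dspp* between 351.99 and 1301.94 TPM. The cKO replicate 2 library stood apart in the enamel matrix gene *Amelx*, with 85453.73 TPM against at least 163351.48 TPM in each other library. In bulk tissue, fewer cells that express a gene and less RNA per cell cannot be told apart.

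In both groups the antagonist pool was dominated by *Wif1*, *Sostdc1* and *Dkk3*. Together they made up 79.1% to 85.8% of the summed antagonist TPM in the controls, and in cKO their share ran from 73.5% to 89.4%. *Wif1* had the highest level, and its lowest library (109.72 TPM) was above the highest library of *Sostdc1* (103.23 TPM). *Sostdc1* in turn lay above *Dkk3* without overlap of their ranges, and *Dkk3* above *Notum*. Below this, the order by mean was *Notum*, *Dkk1*, *Sfrp5*, *Sfrp1*, *Sfrp4*, *Sfrp2* and *Dkk2*, and the ranges of every pair of neighbours overlapped. *Sfrp4* was above *Sfrp2* in only 2 of the 6 libraries, so that their order rests on the mean alone.

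**Figure D1:**
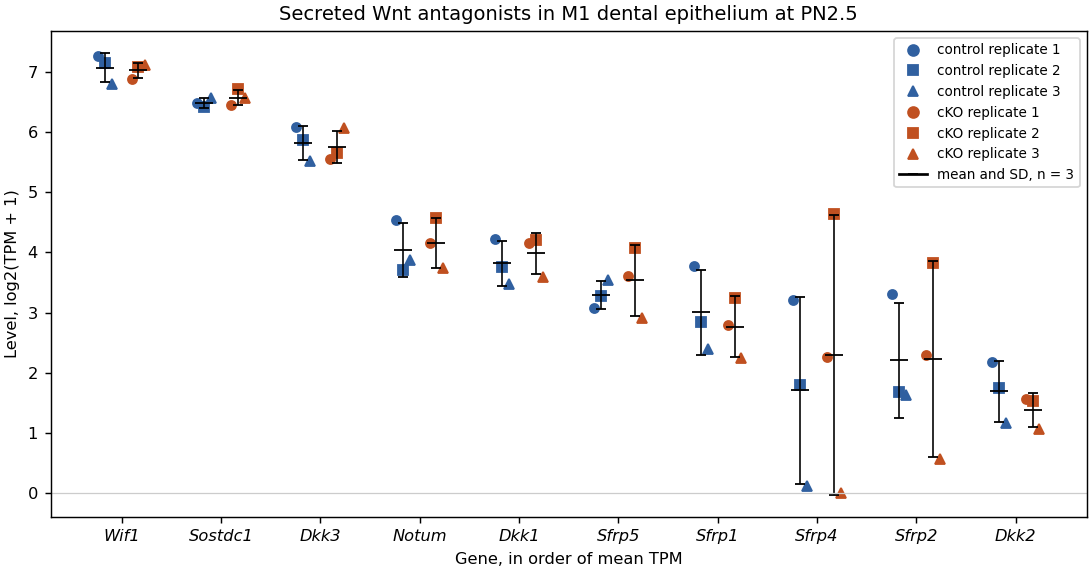
Level of each antagonist in each library on the log2(TPM + 1) scale, with genes in order of mean TPM. Blue symbols are control and orange symbols cKO libraries, the shape gives the replicate number, and black bars give the mean and SD over 3 libraries. The groups overlap for all 10 genes, and the libraries of *Sfrp4* and *Sfrp2* are the farthest apart.

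Among the antagonists that bind the Wnt ligand, *Wif1*, which carries its own Wnt-binding domain, was the most abundant. It was 151.70, 140.06 and 109.72 TPM in control libraries against 117.02, 134.02 and 137.66 TPM in cKO. All 3 cKO values fell inside the control range. Its mean was 134 ± 21.7 TPM (SD, n = 3) in control and 130 ± 11.0 TPM (SD, n = 3) in cKO (two-sided exact permutation test, p = 0.8; 3 against 3 libraries cannot go below 0.1). The log2 fold change was -0.04 with a 95% interval from -0.44 to 0.37, which corresponds to 73.8% to 129% of the control value of TPM + 1.

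The secreted Frizzled-related proteins capture Wnt ligands with a domain that resembles the ligand-binding part of the Frizzled receptors. *Sfrp5* was 7.47, 8.65 and 10.61 TPM in control against 11.26, 15.92 and 6.52 TPM in cKO. The cKO libraries held both the lowest and the highest values, around a narrower control group. *Sfrp5* had a log2 fold change of 0.24 (95% interval -0.51 to 0.98, exact permutation p = 0.6). *Sfrp1* was 12.75, 6.17 and 4.28 TPM in control against 5.96, 8.51 and 3.72 TPM in cKO. Control replicate 1 was the highest library of *Sfrp1*, and the other 5 overlapped. *Sfrp1* had a log2 fold change of -0.25 (95% interval -1.21 to 0.72, exact permutation p = 0.6).

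*Sfrp2* and *Sfrp4*, from the same family, varied far more between libraries of 1 genotype than between genotypes. *Sfrp2* was 8.93, 2.22 and 2.10 TPM in control against 3.90, 13.17 and 0.49 TPM in cKO. *Sfrp4* was 8.30, 2.46 and 0.09 TPM in control, 3.78 and 23.89 TPM in cKO replicates 1 and 2, and listed at 0 in cKO replicate 3. For both genes, cKO replicate 2 was the highest and control replicate 1 the next highest library, and cKO replicate 3 was the lowest. Only 2.35% of the genes tested had a larger SD between libraries of a group than *Sfrp2*, and 1.14% a larger one than *Sfrp4*. The log2 fold change was 0.02 (95% interval -1.94 to 1.98) for *Sfrp2* and 0.59 (95% interval -2.27 to 3.44) for *Sfrp4*. With intervals this wide, a change by several fold in either direction was not detectable for either gene. Without cKO replicate 2 both fold changes turned negative, to -0.78 for *Sfrp2* and -0.58 for *Sfrp4*.

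*Notum* encodes the secreted carboxylesterase that inactivates Wnt ligands, and it is a feedback target of β-catenin in many tissues. It was 22.26, 12.03 and 13.60 TPM in control against 16.84, 22.63 and 12.34 TPM in cKO. Each group held 1 high library, control replicate 1 and cKO replicate 2, and the other libraries lay between 12.03 and 16.84 TPM. Its log2 fold change was 0.12 (95% interval -0.59 to 0.82, exact permutation p = 0.7), which corresponds to 66.3% to 177% of the control value of TPM + 1.

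Of the antagonists that act on the co-receptors, *Sostdc1* was the most even across libraries. It was 87.90, 83.89 and 93.76 TPM in control against 86.31, 103.23 and 92.97 TPM in cKO. A larger SD between libraries of a group was found for 96.7% of the genes tested, and the highest library exceeded the lowest by only 1.23 times. The mean was 88.5 ± 4.96 TPM (SD, n = 3) in control and 94.2 ± 8.52 TPM (SD, n = 3) in cKO, with a log2 fold change of 0.09 (95% interval -0.25 to 0.42, exact permutation p = 0.5). This was the narrowest interval of the 10 genes, from 84.1% to 134% of the control value of TPM + 1.

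The Dickkopf genes encode cysteine-rich proteins, of which Dkk1 and Dkk2 bind Lrp5 and Lrp6, while Dkk3 is a divergent member. *Dkk1* was 17.56, 12.52 and 10.12 TPM in control against 16.74, 17.44 and 11.09 TPM in cKO. The highest and the lowest libraries were both control libraries. *Dkk1* had a log2 fold change of 0.17 (95% interval -0.46 to 0.79, exact permutation p = 0.7). *Dkk2* had the lowest mean of the 10 antagonists, with 3.52, 2.35 and 1.24 TPM in control against 1.95, 1.89 and 1.09 TPM in cKO. Control replicates 1 and 2 of *Dkk2* were above all cKO libraries, and control replicate 3 was below 2 of them, with a log2 fold change of -0.31 (95% interval -1.09 to 0.47, exact permutation p = 0.4). *Dkk3* was 66.38, 56.95 and 44.52 TPM in control against 45.78, 49.46 and 65.59 TPM in cKO. Both groups of *Dkk3* spanned nearly the same range, with a log2 fold change of -0.06 (95% interval -0.56 to 0.44, exact permutation p = 0.9).

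**Figure D2:**
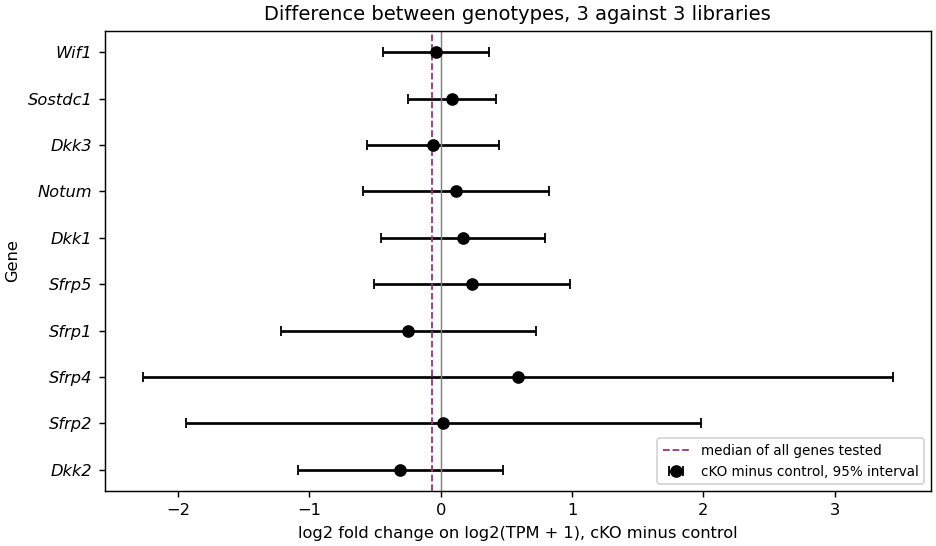
Log2 fold change of each antagonist, cKO minus control on the log2(TPM + 1) scale, with the 95% interval from limma over 3 control and 3 cKO libraries. Every interval crosses 0, and those of *Sfrp4* and *Sfrp2* are the widest. The dashed line is the median of all genes tested, at -0.07.

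The intervals separate the antagonists by how much these libraries can say. For 6 of the 10 (*Wif1*, *Sostdc1*, *Dkk3*, *Notum*, *Dkk1* and *Sfrp5*), the 95% interval lay within 1 log2 unit of no change on both sides. For the other 4 (*Sfrp1*, *Sfrp2*, *Sfrp4* and *Dkk2*) it reached beyond 1 log2 unit on at least 1 side. *Sfrp5* lay close to this limit, and its upper bound of 0.98 became 1.05 with a pseudocount of 0.1 and 1.06 with quantile normalization. The median share of a gene's variation that lay between the genotypes was 4.44% over the antagonists and 11.7% over all genes tested. It was 19.5% for *Sostdc1* and 17.6% for *Dkk2*, and at or below 9.69% for the other 8.

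The library with the highest level of an antagonist came from either genotype. Control replicate 1 was the highest library for *Wif1*, *Dkk1*, *Dkk2*, *Dkk3* and *Sfrp1*, and cKO replicate 2 for *Sfrp2*, *Sfrp4*, *Sfrp5*, *Sostdc1* and *Notum*. These libraries were singled out after the values were seen, and 40.1% of all genes tested were highest in 1 of them. The ranking is on TPM as deposited, where all genes of a library share nearly the same sum. In cKO replicate 2, *Amelx* took 85453.73 TPM, against at least 163351.48 TPM in each other library, which leaves more of that sum to other genes. Whether the highest library of a gene changes with another scaling was not tested. The profiles were not otherwise alike, since *Sfrp5* in control replicate 1 was its second lowest value and *Dkk3* and *Wif1* in cKO replicate 2 were each the fourth highest of 6. The lowest library was replicate 3 of either group for 8 of the 10, compared with 48.6% of all genes tested. The markers of another cell type were read beside this. All 12 dental mesenchyme and fibroblast markers were highest in control replicate 1 (9 markers) or cKO replicate 2 (3 markers), and replicate 3 of either group was lowest for 7 of them. cKO replicate 1 was lowest for 4 of the 12 markers and for 0 of the 10 antagonists, beside 3466 of all 13719 genes tested.

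**Figure D3:**
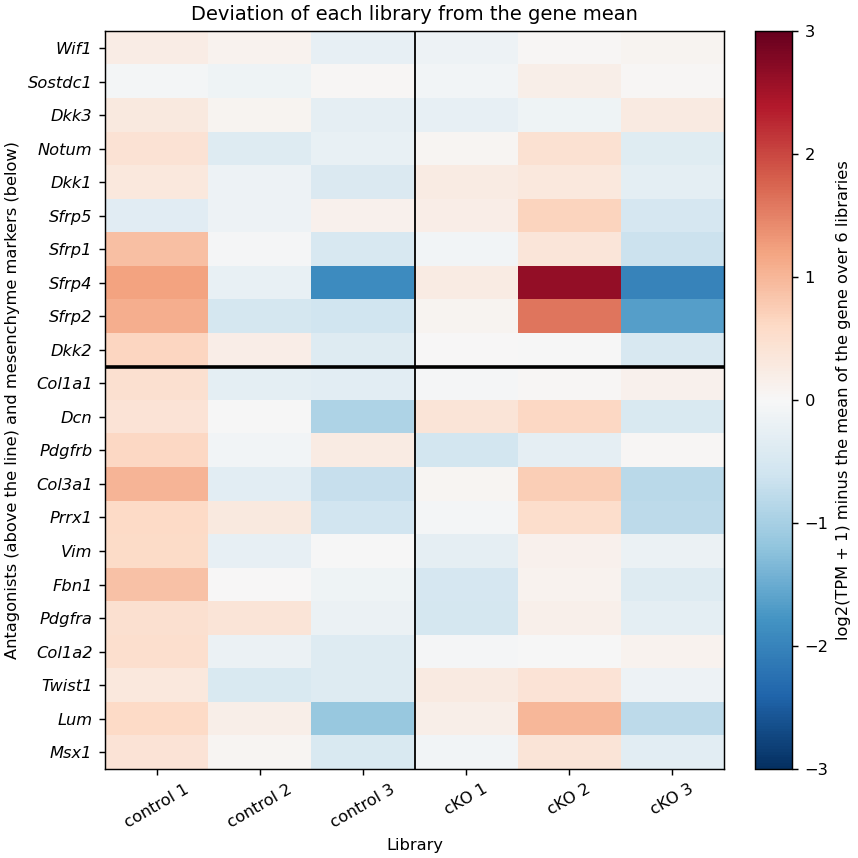
Deviation of each library from the mean of the gene over 6 libraries on the log2(TPM + 1) scale, red for higher and blue for lower. The antagonists are above the thick line and the 12 dental mesenchyme and fibroblast markers below it, and the vertical line separates the 3 control from the 3 cKO libraries. The highest value of every gene shown is in control replicate 1 or cKO replicate 2, while the lowest values are spread over the other libraries.

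All 12 mesenchyme markers had a mean of at least 1 TPM, and 0 of 12 met the study's criteria, a count near the 4.02% of all genes tested. Their summed level was 5960.90, 3573.04 and 3275.05 TPM in control against 4088.65, 4471.01 and 4344.51 TPM in cKO, with cKO replicate 1 lowest of the cKO libraries. That sum is mostly *Col1a1* and *Col1a2*. Without these, it was 887.14, 542.11 and 435.16 TPM in control against 590.59, 807.80 and 442.46 TPM in cKO. The lowest of the cKO libraries was then replicate 3, so it depended on which markers were summed. The 4 odontoblast markers summed to between 448.57 and 1519.68 TPM in control and between 594.27 and 1102.12 TPM in cKO, again with replicate 3 lowest in each group. Of the other lists, the 5 osteoblast markers summed to 683.82 to 1009.61 TPM in control and 982.83 to 1336.14 TPM in cKO, with *Bglap* higher in cKO by the study's criteria. The 5 endothelial markers summed to 60.18 to 95.47 TPM in control and 47.70 to 67.31 TPM in cKO, with *Pecam1* highest over the 6 libraries and *Cdh5* highest in the controls, and 2 of the 5, *Cdh5* and *Tek*, were lower in cKO by the study's criteria. The 7 blood and immune markers, of which *Hbb-bs* was highest over the 6 libraries and *Hba-a2* in the controls, summed to 1221.17 to 1834.62 TPM in control and 1085.14 to 1176.78 TPM in cKO, with 1 of 5 tested, *Hbb-bs*, lower by these criteria, and the skeletal muscle markers were at or below 1.79 TPM in sum. The 8 epithelial markers summed to 6069.23 to 8782.67 TPM in control and 5816.20 to 8116.32 TPM in cKO, and the 6 ameloblast markers to at least 199884.20 TPM in each control library and to 95859.17 to 208311.34 TPM in cKO. The part of these cells in the levels of the antagonists was not tested.

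Antagonists and ligands were set side by side as summed TPM. Such sums of RNA weigh all genes of a list alike and do not measure the activity of the proteins. The 10 antagonists summed to 386.77, 327.30 and 290.04 TPM in control against 309.54, 390.16 and 331.47 TPM in cKO. The 19 Wnt ligands summed to 491.17, 466.74 and 509.84 TPM in control against 378.32, 405.66 and 540.69 TPM in cKO. The ratio of the former to the latter was 0.787, 0.701 and 0.569 in control and 0.818, 0.962 and 0.613 in cKO. The groups overlapped in this ratio, with cKO replicates 1 and 2 above all control libraries and cKO replicate 3 below control replicates 1 and 2. The ligand sum includes the targeted gene *Wnt10a*, at 51.20 to 57.86 TPM in control and 21.79 to 32.22 TPM in cKO. Its lower level by itself raises the ratio in cKO. A ratio without *Wnt10a* was not computed, so how far the position of cKO replicates 1 and 2 rests on that gene was not tested. *Wnt6* and *Wnt10a* had the highest control means of the ligands, 218 and 55.0 TPM.

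Partners of the antagonists on the receiving cell had lower fitted values in cKO, and whether they differ from the antagonists in this was not tested. *Kremen1* encodes a receptor with which Dkk1 clears Lrp6 from the surface. It was 43.67, 48.47 and 44.54 TPM in control against 25.37, 27.75 and 41.14 TPM in cKO. All 3 cKO libraries were below all control libraries, cKO replicate 3 narrowly so, with a log2 fold change of -0.55 (SE 0.21, unadjusted p of 0.0328 from limma, adjusted p 1.00). The co-receptor genes *Lrp4*, *Lrp5* and *Lrp6* had log2 fold changes of -0.56, -0.42 and -0.31 and did not meet the criteria. They met them in 5, 1 and 1 of the 15 alternatives, *Lrp4* with quantile normalization and median-ratio scaling among others and at -0.84 without control replicate 3, *Lrp5* with values rescaled to the protein-coding genes, and *Lrp6* without control replicate 3, at -0.64. The median of these 4 tested genes was -0.48, beside -0.07 over all genes tested, and *Kremen2* was below the level needed for testing. When each library was corrected for gene length and for GC content, the fold changes on the log2 scale became -0.32 for *Kremen1*, -0.21 for *Lrp4*, -0.05 for *Lrp5* and -0.03 for *Lrp6*, and *Kremen1* no longer met the criteria (unadjusted p of 0.1 from limma). *Kremen1* met the criteria in 6 of the 15 alternatives of the fit, and with any single library other than cKO replicate 3 left out it did not meet them, with an unadjusted p from limma of up to 0.11.

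Among 15 other genes listed here as secreted or membrane inhibitors of Wnt signaling, 9 were tested. Of these, 1 met the study's criteria with a lower and 0 with a higher level, and the median log2 fold change was -0.04. That gene was *Apcdd1*, a membrane inhibitor that binds Wnt and Lrp5, at 55.24, 48.40 and 44.99 TPM in control against 24.50, 19.24 and 44.92 TPM in cKO. The groups were barely separated, with cKO replicate 3 next to control replicate 3, and the log2 fold change was -0.81 (SE 0.30, unadjusted p of 0.0307 from limma, adjusted p 1.00). *Apcdd1* met the criteria in 8 of the 15 alternatives. It did not meet them after the length and GC correction, at -0.48, with quantile normalization, at -0.77, or with median-ratio scaling, at -0.74. Leaving out 1 of control replicates 1 and 2 or cKO replicates 1 and 2 also lost the call, and the value closest to 0 was -0.56, without cKO replicate 2. *Gpc3*, a glypican, and *Bambi*, a BMP pseudoreceptor, had the highest control means of the list, 185 and 88.4 TPM, with log2 fold changes of 0.0059 and 0.09. *Frzb*, a further gene of the Sfrp family, had means of 1.51 TPM in control and 1.96 TPM in cKO. *Dkk4*, the remaining Dickkopf gene of the classical group, was listed at 0 in all 6 libraries.

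Among the 16 targets and feedback genes of β-catenin, a list that includes *Wif1*, *Dkk1* and *Notum*, 13 were tested. Of these, 1 (*Apcdd1*) met the criteria with a lower level, 8 had negative and 5 positive fold changes, and the median was -0.04. The most widely used readout, *Axin2*, was 18.33, 25.59 and 18.60 TPM in control against 16.00, 12.58 and 17.80 TPM in cKO. Its groups did not overlap, with a log2 fold change of -0.40 (SE 0.21), and it did not meet the criteria. Of the 12 ligands tested, 2 met the criteria, both lower, *Wnt10a* and *Wnt5a*. Of the 9 Frizzled genes tested, 1 met them, *Fzd7*, which was lower, and *Fzd6* had the highest control mean of the family, 47.0 TPM. *Wnt5a* met the criteria in 7 and *Fzd7* in 6 of the 15 alternatives. After the length and GC correction neither met them, with unadjusted p of 0.273 and 0.089 from limma. Nor did they with 1 of control replicates 1 and 2 or cKO replicates 1 and 2 left out, while *Wnt10a* met the criteria in all 15 alternatives. *Wls* and *Porcn*, which Wnt ligands need for secretion, had log2 fold changes of 0.05 and 0.0070.

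For the 3 most abundant antagonists, the genes with the most similar profile over the 6 libraries were found by the root mean square difference of log2(TPM + 1), centred on each gene's mean. The nearest were *Efl1*, *Nfatc2* and *Pcdhb20* for *Wif1* (differences of 0.016, 0.036 and 0.036). For *Sostdc1* they were *Gtse1*, *Tmem242* and *Tamm41* (0.0090, 0.026 and 0.035). For *Dkk3* they were *Irf2bpl*, *Kank4* and *Kcnh2* (0.016, 0.025 and 0.037). None of these is another antagonist of the 10.

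**Figure D4:**
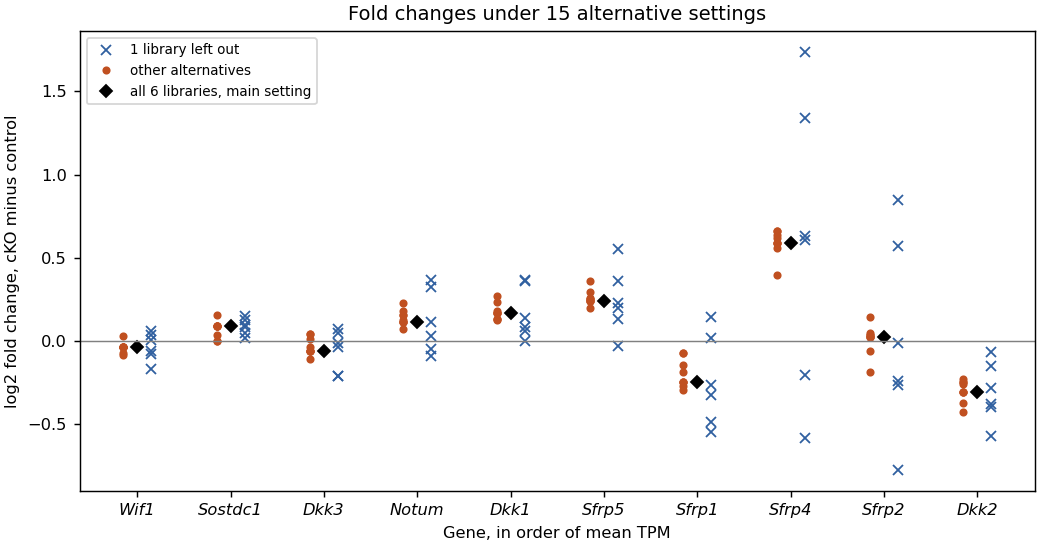
Log2 fold change of each antagonist, cKO minus control, under the main setting (black diamonds), under 9 other settings (orange points) and with each of the 6 libraries left out in turn (blue crosses). *Sfrp4* and *Sfrp2* cross 0 by the widest margin when a library is left out, while *Dkk2* stays below 0 throughout. *Sostdc1* does not fall below 0 but lies practically at 0 with the length and GC correction.

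The absence of calls among the antagonists, a count near the 4.02% of all genes tested in the main setting, did not depend on the settings tried. In 15 alternatives of the fit, 0 of 10 antagonists met the study's criteria, and the smallest unadjusted p from limma was 0.0767, for *Sfrp5* without cKO replicate 3. The direction did depend on them for 8 of the 10, and the sign was kept in all 15 for *Dkk2* (negative) and *Sostdc1* (positive). For *Sostdc1*, though, the log2 fold change was only 3.86e-05 after the length and GC correction, without and with the replicate block. That value gives no direction.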

How the data were processed

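RNA-seq was performed by the authors on 6 libraries of dental epithelium. According to the methods, reads were trimmed with SeqPrep and Sickle and aligned with HISAT2, and RSEM was used for gene abundance, while the submitters' processing notes name HISAT2 and StringTie. The genome build and annotation are not given in the sources used here. The authors deposited 1 TPM value per gene and library (the methods name FPKM, but the libraries share nearly the same sum, as TPM do). Groups and replicate numbers come from the titles, and columns were matched by the sample descriptions.

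Here, genes whose mean over the libraries was 1 TPM or more entered limma 3.58.1 (R 4.3.3) with lmFit and eBayes with a mean-variance trend on log2(TPM + 1), genotype as the only term. The Benjamini-Hochberg adjustment ran over the 13719 genes so kept. For the antagonists, an exact permutation test on TPM (two-sided) was added. The fit was run on simulated data with independent noise, which says nothing about deviations that the genes of a library share. Lengths, GC content and gene positions come from GENCODE M21 (GRCm38), matched by gene identifier (99.5% of genes), and the correction fitted a natural spline (4 degrees of freedom) to length and to GC content.

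The antagonists and gene lists were chosen with earlier results of these data known, so no list was tested. Named genes are the 10 antagonists, *Wnt10a*, genes of the pathway lists that met the criteria or had the 2 highest control means, and the most abundant marker of each list. *Lrp4*, *Lrp5*, *Axin2*, *Frzb*, *Dkk4*, *Kremen2*, *Ambn*, *Col1a2*, *Cdh5*, *Tek* and *Hba-a2* were named after their values were seen. Alternatives were a pseudocount of 0.1, no filter, other scalings, no trend, a replicate block, the length and GC correction with and without the block, and leaving out each library. Protein sequences were not used here. The number of libraries limits the precision, and TPM keep no depth.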

Additional observations from a re-analysis of the deposited data

How the results depend on the processing

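No antagonist met the study's criteria in any of the 15 alternatives, and 23 of 150 fold changes had the opposite sign to that of the main setting, all below the threshold in both. With median-ratio scaling, *Dkk3* was 0.0082 and *Wif1* 0.031. With the length and GC correction *Dkk3* was 0.039, without and with the replicate block. *Sfrp2* was -0.19 with a pseudocount of 0.1 and -0.062 with values rescaled to the protein-coding genes, *Amelx* and *Ambn* left out. Leaving out each library in turn gave ranges of -0.0024 to 0.37 for *Dkk1*, -0.21 to 0.071 for *Dkk3*, -0.55 to 0.14 for *Sfrp1*, -0.78 to 0.85 for *Sfrp2*, -0.58 to 1.74 for *Sfrp4*, -0.033 to 0.55 for *Sfrp5*, -0.17 to 0.060 for *Wif1* and -0.090 to 0.37 for *Notum*. The median of all genes was -0.18 without control replicate 3 and -0.17 without cKO replicate 2, so that part of the lower values in those fits is shared by all genes. The 2 genes with an adjusted p below 0.05 became 4 with a pseudocount of 0.1, with quantile normalization and with the replicate block, 1 without the filter and with the correction and the block, 0 after rescaling to protein-coding genes (755 had an unadjusted p below 0.05), and 2 to 9 with a library left out. The 552 genes under the study's criteria became 940 without the filter, 1315 with the replicate block, 1110 with the correction and the block, and 195 to 1152 with a library left out. After the length and GC correction, 334 were higher and 285 lower. The cause of these differences was not tested. Same-numbered libraries deviated with correlations across genes of -0.08, 0.29 and 0.40, against -0.40 to 0.18 for libraries with different numbers. The methods speak of 3 pairs of biological replicates, and the column names of both groups carry the same numbers. They do not say what joins the libraries of a pair, so the numbers were not taken as pairs in the main setting and were used only in the replicate block. The replicate block changed no call among the antagonists. With it *Lrp4* met the study's criteria, and *Apcdd1* met them with the correction when the block was added. Depth is unknown, and for *Sfrp2* and *Sfrp4* the spread between libraries is the limit.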
